A study of Homo sapiens with 12 samples.

Results

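The 10 genes ACLY, ACACA, FASN, ELOVL6, ELOVL1, ELOVL5, SCD, FADS1, FADS2 and FADS3 encode enzymes that build fatty acids, lengthen them and put double bonds into them. They were picked by gene symbol from 60660 genes with values in both deposited tables, and all 10 passed the filter on low counts in both. The choice was made with results of the same libraries in view, so the values of these 10 genes are given as a description and no p-value is printed for them.

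Bulk RNA sequencing was done on HL-60, a line of human promyelocytic leukaemia cells with the capacity to become neutrophil-like or monocyte-like. HL-60 cells transduced with a vector expressing JMJD3 were set against cells given a control vector by transduction, and HL-60 cells with a JMJD3 knockout were set against the parental HL-60 cells. Each of the 4 groups had 3 libraries, and all cells were grown in DMEM with serum. JMJD3, encoded by KDM6B, is a demethylase of histone H3 at lysine 27, and the comparisons ask which transcripts differ with a gain and with a loss of it. The promoter of the expression vector, the site of the knockout and whether the knockout cells are a single clone are not given in the sources used here.

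Fatty acid synthesis starts in the cytosol. ATP citrate lyase (ACLY) makes acetyl-CoA from citrate, acetyl-CoA carboxylase (ACACA) turns it into malonyl-CoA, and fatty acid synthase (FASN) joins both into palmitate. ELOVL enzymes then lengthen the chain at the endoplasmic reticulum, SCD makes monounsaturated fatty acids, and FADS2 and FADS1 act in turn on linoleate and alpha-linolenate on the way to arachidonate and other long polyunsaturated fatty acids of membranes. Many of these genes are driven by the SREBP factors, which leave the endoplasmic reticulum with the escort protein SCAP when the retention protein INSIG1 lets go, and by the oxysterol receptors LXR (NR1H3 and NR1H2).

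FADS1 (ENSG00000149485), FADS2 (ENSG00000134824) and FADS3 (ENSG00000221968) lie side by side on chromosome 11. In GENCODE 29 (GRCh38) FADS2 spans chr11:61792980-61867354 on the plus strand, FADS1 spans chr11:61799625-61829318 on the minus strand inside the span of FADS2, and FADS3 spans chr11:61873519-61892051 on the minus strand. The RefSeq starts of FADS1 and FADS2 are 800 bases apart, and the genes are transcribed towards each other across that stretch. Sequences ahead of 4 start sites are shown because these genes carried the largest differences: FADS1 and FADS2 were the members lower in both comparisons, FADS3 lay next to them and was higher on overexpression, and SCD is a desaturase on another chromosome. Each is the part of the 250 bases before a RefSeq start (GRCh38.p14) that lies outside annotated exons, written along the gene's own strand, with CCAAT on either strand (CCAAT or ATTGG) in capitals. They are, in order, chr11:61817198-61817253 (minus strand), chr11:61816149-61816202 (plus strand), chr11:61891546-61891795 (minus strand) and chr10:100346983-100347123 (plus strand).
FADS1: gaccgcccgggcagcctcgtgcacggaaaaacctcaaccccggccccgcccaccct
FADS2: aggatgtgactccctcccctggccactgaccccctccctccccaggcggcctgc
FADS3: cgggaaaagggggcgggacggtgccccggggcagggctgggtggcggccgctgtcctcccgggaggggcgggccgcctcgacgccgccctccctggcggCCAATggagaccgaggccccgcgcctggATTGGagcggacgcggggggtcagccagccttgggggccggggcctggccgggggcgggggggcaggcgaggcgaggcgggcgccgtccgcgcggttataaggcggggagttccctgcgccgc
SCD: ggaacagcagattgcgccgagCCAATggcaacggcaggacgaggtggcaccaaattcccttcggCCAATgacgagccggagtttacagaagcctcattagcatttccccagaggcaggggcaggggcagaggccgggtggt

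The FADS3 and SCD stretches hold CCAAT, a motif bound by the factor NF-Y, at a pair of places each, and the FADS1 and FADS2 stretches hold none. Over the whole windows of 250 bases, CCAAT was found on either strand, at any of a gene's start sites, in 6 of 9 members with a RefSeq entry, against 37.0% of 27305 genes counted the same way. The sterol response element core TCACNCCAC was found in 0 of 9, against 1.09% of genes, and the E-box CACGTG in 1 of 9 (ELOVL5), against 7.73%. These are matches of letters in a short window, and matches of different motifs did not overlap in any member. FASN is named only.

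The libraries held 26861304 to 43647715 expected counts. KDM6B (ENSG00000132510) was at 98.0, 99.5 and 83.9 CPM in the overexpression libraries, against 35.2, 34.8 and 24.7 CPM in the vector libraries, where CPM is the count scaled to library size with TMM factors of its own table. The knockout libraries had KDM6B at 37.2, 45.2 and 36.9 CPM, against 56.6, 56.6 and 59.0 CPM in the parental libraries, so the transcript was still present in the cells labelled knockout. On the deposited FPKM it was at 6.31, 11.4 and 6.14 in knockout libraries, against 11.0, 11.0 and 10.4 in parental libraries. Knockout replicate 2 thus lay above every parental library on FPKM. Whether the 3 libraries of a group came from separate cultures is not in the labels, so a p-value here reflects library-to-library spread that could be technical alone. In the overexpression table replicates 1 and 2 lay close together in each group (chi-square per gene 1.69 and 1.96, where 1 is counting noise), and replicate 3 lay 29.7 to 39.2 from them. Results without replicate 3 are given where they differ.

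On JMJD3 overexpression most of the 10 chosen genes were lower, with the desaturases SCD, FADS1 and FADS2 furthest down. Of the 10 genes, 7 were called lower (ACLY, ACACA, FASN, ELOVL1, SCD, FADS1 and FADS2), FADS3 was called higher, and ELOVL5 and ELOVL6 were not called, at an adjusted p under 0.05 by edgeR's quasi-likelihood test over 14322 genes. In the same comparison 50.3% of all genes were called, 26.4% higher and 23.9% lower. The median log2 fold change of the 10 genes was -0.76, beside -0.0031 over all genes. The libraries of the groups did not overlap for 8 of the 10 genes, as for 58.9% of all genes.

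Among the synthesis enzymes, FASN (ENSG00000169710, chromosome 17) was at 641, 637 and 591 CPM in the overexpression libraries, against 1395, 1357 and 1147 CPM in the vector libraries. Every overexpression library lay below every vector library, at a log2 fold change of -1.06 ± 0.087 (SE), or 2.09-fold lower. ACACA (ENSG00000278540, chromosome 17), which makes the malonyl-CoA that FASN uses, was at 55.6, 55.2 and 67.2 CPM with overexpression, against 103, 104 and 123 CPM with vector. Its log2 fold change was -0.89 ± 0.11, and the groups did not overlap. ACLY (ENSG00000131473, chromosome 17), the source of cytosolic acetyl-CoA, was at 345, 354 and 366 CPM with overexpression, against 548, 555 and 553 CPM with vector (log2 fold change -0.64 ± 0.058). ACLY had the smallest difference of the 3 synthesis enzymes and very little spread within a group.

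Of the 3 elongases, ELOVL1 was called and ELOVL5 and ELOVL6 were not. ELOVL1 (ENSG00000066322, chromosome 1), which lengthens very long saturated and monounsaturated chains, was at 79.1, 76.3 and 72.3 CPM in the overexpression libraries, against 109, 109 and 105 CPM in the vector libraries, a log2 fold change of -0.50 ± 0.067 without overlap. ELOVL5 (ENSG00000012660, chromosome 6), which lengthens polyunsaturated fatty acids, was at 131, 128 and 162 CPM with overexpression, against 128, 131 and 164 CPM with vector. Both groups covered the same range, and the third library was the highest in each. ELOVL6 (ENSG00000170522, chromosome 4), which lengthens palmitate, was at 30.6, 31.7 and 37.7 CPM with overexpression, against 29.0, 28.2 and 33.1 CPM with vector, a log2 fold change of 0.15 ± 0.11 with overlapping groups. With the replicate number as a block, ELOVL6 was called higher (0.15 ± 0.047), as it was with replicates 1 and 2 only (0.15 ± 0.057). It was not called with replicates 1 and 2 summed into 1 library (0.16 ± 0.16). The deposited FPKM turned its direction (-0.069 on log2(FPKM + 1)), with vector libraries between 9.26 and 23.8 FPKM.

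The desaturases showed the widest differences, in both directions. SCD (ENSG00000099194, chr10:100347124-100364834, plus strand), which makes oleate and palmitoleate, was at 199.5, 203 and 236 CPM in the overexpression libraries, against 778, 783 and 887 CPM in the vector libraries. That is 3.83-fold lower (log2 fold change -1.94 ± 0.093), the 53rd most negative fold change of all genes tested. FADS2, which takes the first step from linoleate and alpha-linolenate, was at 7.48, 6.80 and 5.91 CPM with overexpression, against 44.1, 42.3 and 39.1 CPM with vector. The groups were 6.23-fold apart (log2 fold change -2.64 ± 0.11), the 28th most negative of all. FADS1, which takes the last step to arachidonate, was at 16.8, 18.5 and 18.4 CPM with overexpression, against 51.4, 52.9 and 57.9 CPM with vector, or 3.01-fold lower (-1.59 ± 0.083). FADS3, which acts on the long-chain bases of sphingolipids, went the other way. It was at 5.64, 5.78 and 4.73 CPM with overexpression, against 1.34, 1.59 and 1.09 CPM with vector, or 4.03-fold higher (2.01 ± 0.17). The vector value of FADS3 rests on 34, 47 and 40 expected counts, and on log2(FPKM + 1) its difference was 1.28.

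**Figure D1:**
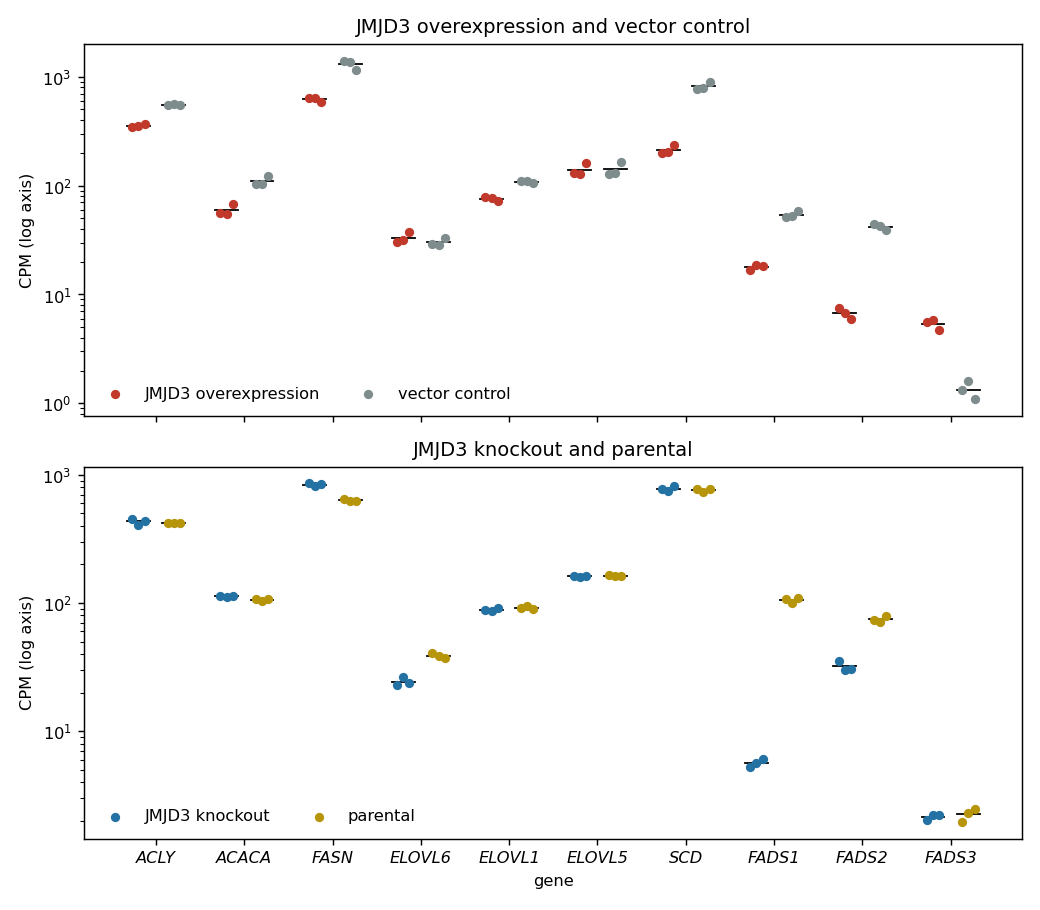
Level of each gene in every library, as CPM on a log axis, with overexpression (red) left of vector (grey) above and knockout (blue) left of parental (ochre) below. Points are libraries in order of replicate number and the bar is the mean of 3, and in the lower panel the widest gap is that of FADS1, at 5.29 to 6.08 CPM in knockout against 100.01 to 109.8 CPM in parental libraries.

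Many markers of maturation differed as well. The promyelocyte markers of HL-60 summed to 9388 to 10524 CPM in the overexpression libraries, against 17467 to 21901 CPM in the vector libraries. MPO alone made most of these sums, at a mean of 8608 CPM with overexpression, against 17828 CPM with vector. Of 11 tested, 0 were higher and 6 lower, where 26.4% of all genes were called higher and 23.9% lower. The granule proteins PRTN3, CTSG and MPO led the lower ones, and CD33, MYB, CEBPE, SPI1 and RNASE2 were not called. The markers of mature neutrophils and monocytes summed to 1370.2 to 1401 CPM with overexpression, against 117 to 132 CPM with vector. S100A9 made most of the overexpression sum, at a mean of 883 CPM, against 35.6 CPM with vector. Of 18 listed, 13 were at 1 CPM or more with overexpression and 9 with vector, and FCGR3B, CD14 and LTF were too low to test. Of 15 tested, 14 were higher. Among them were the calcium-binding proteins S100A9 (log2 fold change 4.63 ± 0.067) and S100A8 (5.43 ± 0.091) and the integrin ITGAX (6.16 ± 0.10). Of 22 markers of other blood lineages and stroma, 11 were tested, 7 were higher and 1 lower, and HBG1, HBB, PF4, MS4A1 and COL3A1 had 0 counts in all 4 groups. The higher ones by smallest p were VIM, the integrin ITGA2B (3.69 ± 0.21) and PECAM1. The sum of the list was 189.6 to 204 CPM with overexpression, against 68.1 to 74.8 CPM with vector, and it includes VIM, which myeloid cells express too. The part of these shifts in the lipid gene differences was not tested, and in bulk RNA fewer cells of a type and less RNA per cell cannot be told apart.

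On JMJD3 knockout FADS1 was the member furthest down, and most of the 10 genes were not called. FADS1, FADS2 and ELOVL6 were called lower, FASN was called higher, and ACLY, ACACA, ELOVL1, ELOVL5, SCD and FADS3 were not called, by the same test over 14186 genes, of which 37.8% were called, 17.6% higher and 20.2% lower. The median log2 fold change of the 10 genes was -0.030, beside -0.0022 over all genes. The groups did not overlap for 5 of the 10, as for 48.9% of all genes, and the fifth was ACACA. Across the tables, FADS1 and FADS2 were the members called lower in both comparisons, as were 413 of 13721 genes tested in both, or 3.01%. The difference between the comparisons was not tested.

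FADS1 had 5.29, 5.71 and 6.08 CPM in the knockout libraries, against 107, 100.01 and 109.8 CPM in the parental libraries. Knockout cells thus kept a low but measured level, at 154, 194 and 173 expected counts, 18.6-fold below parental (log2 fold change -4.21 ± 0.069, the 77th most negative of all genes tested, and -3.41 on log2(FPKM + 1)). FADS2 was at 35.6, 30.0 and 30.8 CPM in knockout libraries, against 74.1, 70.8 and 79.0 CPM in parental libraries, or 2.33-fold lower (-1.22 ± 0.066). FADS3 was at 2.03, 2.24 and 2.21 CPM with knockout, against 1.97, 2.29 and 2.49 CPM in parental cells, with overlapping groups. SCD was at 768, 742 and 816 CPM in knockout libraries, against 769, 729 and 775 CPM in parental libraries. The ranges of SCD overlapped, and its log2 fold change was 0.033 ± 0.046.

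ELOVL6 was at 22.9, 26.4 and 24.0 CPM in knockout libraries, against 40.6, 38.8 and 37.5 CPM in parental libraries. Every knockout library was below every parental library, 1.59-fold on the means (log2 fold change -0.67 ± 0.065). FASN was at 854, 815 and 839 CPM with knockout, against 644, 625 and 621 CPM in parental cells, or 1.33-fold higher without overlap (0.41 ± 0.041). ACACA was at 114, 110.4 and 114 CPM with knockout, against 107, 104 and 107 CPM in parental cells, a small gap that was not called (0.088 ± 0.042). ACLY, ELOVL1 and ELOVL5 had overlapping groups, with log2 fold changes of 0.037 ± 0.045, -0.056 ± 0.045 and -0.0038 ± 0.040.

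**Figure D2:**
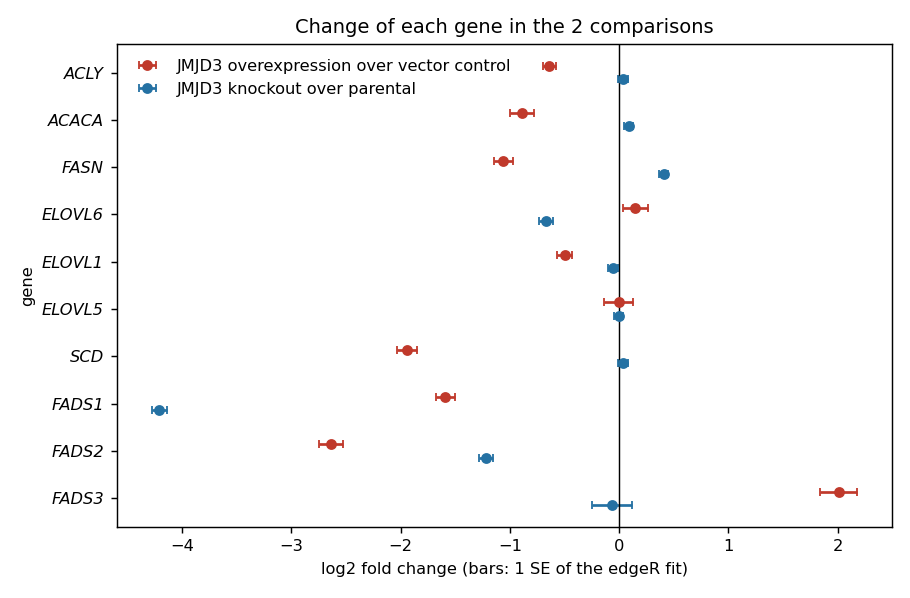
Log2 fold change of each gene for JMJD3 overexpression over vector (red) and JMJD3 knockout over parental (blue), with bars of 1 SE from the edgeR fit. SCD lies at -1.94 and 0.033, FADS1 at -1.59 and -4.21, and FADS2 at -2.64 and -1.22.

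Promyelocyte markers summed to 10378 to 11158 CPM in knockout libraries, against 12166 to 12618 CPM in parental libraries. Of 11 tested, 3 were higher and 6 lower, where 17.6% of all genes were called higher and 20.2% lower. CEBPA, a granulocyte transcription factor, was higher (log2 fold change 1.12 ± 0.047), and CTSG (-0.74 ± 0.083) and MYB (-0.35 ± 0.045) were lower. Mature markers summed to 152 to 161 CPM with knockout, against 177 to 182 CPM in parental cells, with 2 of 11 higher and 3 lower, among them CSF1R higher (1.88 ± 0.17) and ITGAX (-1.14 ± 0.15) and S100A9 (-0.51 ± 0.079) lower. Markers of other lineages summed to 79.2 to 83.5 CPM with knockout, against 82.3 to 86.0 CPM in parental cells, with 4 of 10 higher and 3 lower, among them ITGA2B (3.04 ± 0.13) and CD79A (1.23 ± 0.091) higher and VIM lower (-1.03 ± 0.059). ELANE, a defining promyelocyte protease, had 0 counts in knockout libraries and was at 0.0860 CPM in parental libraries, so this marker was near 0 in both. The part of these shifts in the knockout differences was not tested.

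The authors' deposited table marks 5 of the 10 genes as significant on overexpression and 3 on knockout. That mark does not rest on an adjusted p under 0.05 alone. ACLY, ACACA and ELOVL1 on overexpression and FASN on knockout have an authors' adjusted p under 0.05 and are not marked. Their log2 fold changes there are -0.71, -0.8, -0.55 and 0.42. For FADS1 the authors' deposited table has log2 fold changes of -1.56 on overexpression and -3.99 on knockout. For ELOVL6 on overexpression the authors' deposited table has -0.22, a direction opposite to that of the counts, and on knockout -0.83.

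Levels between genes were compared as FPKM, which divides by transcript length. In overexpressing cells ACLY (104 ± 3.64 FPKM, SD, n = 3) and FASN (96.2 ± 6.65) led with overlapping ranges. There SCD (42.0 ± 4.47 FPKM) was the fifth, below ELOVL1 (72.8 ± 1.72) and ELOVL5 (64.0 ± 9.45) in every library. FADS1 (5.36 ± 1.19 FPKM), FADS3 (3.56 ± 0.846) and FADS2 (3.42 ± 0.620) were the last, and neighbours among them overlapped. ELOVL6 (13.4 ± 2.57 FPKM) and ACACA (10.6 ± 1.27) lay between. In vector cells the order ran from FASN (199 ± 19.8 FPKM), ACLY (171 ± 13.5) and SCD (160.4 ± 15.7), whose ranges overlapped, through ELOVL1 (106 ± 4.26) and ELOVL5 (60.3 ± 9.31) to FADS2 (21.5 ± 2.48), ACACA (18.6 ± 1.94), FADS1 (16.0 ± 1.26) and ELOVL6 (15.0 ± 7.75), each overlapping the next. FADS3 was lowest at 0.862 ± 0.138 FPKM.

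In knockout cells SCD (152 ± 6.89 FPKM), FASN (135 ± 0.869) and ACLY (115 ± 5.30) led, each above the next in every library. In parental cells the leaders were SCD (148 ± 5.15 FPKM), ACLY (111 ± 1.98) and FASN (100.3 ± 4.71), so FASN and ACLY had changed places. FADS1 was the ninth in knockout cells (1.51 ± 0.134 FPKM), where its range overlapped that of FADS3 (1.26 ± 0.132). In parental cells FADS1 was the seventh (25.6 ± 1.23 FPKM), and FADS3 was last (1.46 ± 0.135). FADS2 was at 14.9 ± 2.47 FPKM in knockout cells, against 33.2 ± 5.59 FPKM in parental cells.

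The ratio of FADS1 to FADS2 within a library moved in opposite directions in the comparisons. On FPKM it was 1.44, 1.62 and 1.62 in overexpression libraries, against 0.780, 0.706 and 0.755 in vector libraries. It was 0.0936, 0.0959 and 0.120 in knockout libraries, against 0.837, 0.837 and 0.674 in parental libraries. On FPKM, FADS1 was thus the more abundant of the pair only with overexpression, where FADS2 was the lower by more. On counts, which are not divided by transcript length, the ratio was 1.17, 1.25 and 1.48 in vector libraries and 1.45, 1.41 and 1.39 in parental libraries. It was 2.25, 2.73 and 3.12 with overexpression and 0.149, 0.190 and 0.197 with knockout. Which of the pair was the more abundant in vector and parental cells thus depends on the measure. The vector and parental ratios were alike in size, although these groups come from tables scaled separately.

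**Figure D3:**
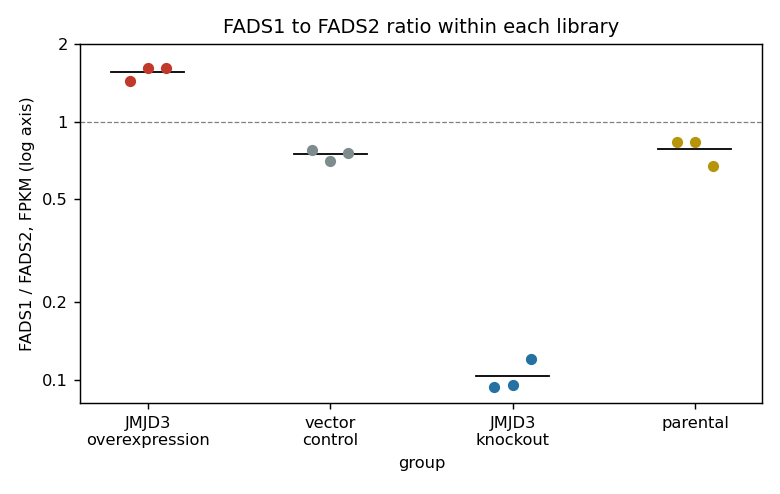
Ratio of FADS1 to FADS2 in FPKM for each library (points, log axis) with the group mean (bar) and a dashed line at equal levels. The overexpression libraries lie at 1.44 to 1.62, vector at 0.706 to 0.780, knockout at 0.0936 to 0.120 and parental at 0.674 to 0.837.

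The ratio of SCD to FASN on FPKM was 0.393, 0.396 and 0.533 in overexpression libraries, against 0.711, 0.730 and 1.01 in vector libraries. Replicate 3 was the highest in both groups. In knockout libraries it was 1.13, 1.08 and 1.19, against 1.43, 1.41 and 1.60 in parental libraries, and the groups of each comparison did not overlap.

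Neighbours of the FADS genes were compared because FADS1 and FADS2 share sequence. Exons of FADS1 and FADS2 on opposite strands share 490 bases (4.79% of exon bases of FADS1 and 4.44% of those of FADS2), and the library kit does not mark strand, so reads from there cannot be told apart. FADS2 also shares 49 exon bases (0.444%) with FEN1. On overexpression, MYRF was higher (log2 fold change 0.90 ± 0.16, adjusted p 0.00252 by edgeR's quasi-likelihood test), as were the retinal chloride channel gene BEST1 (2.81 ± 0.33, adjusted p 0.000356) and the ferritin heavy chain FTH1 (0.30 ± 0.084, adjusted p 0.0181). FEN1, a flap endonuclease of DNA replication, was lower (-0.44 ± 0.061, adjusted p 0.000774), and TMEM258 and RAB3IL1 were not called (-0.060 ± 0.11 and 0.34 ± 0.15). Of the neighbours called on overexpression, FEN1 thus had the sign of FADS1 and FADS2, and MYRF, BEST1 and FTH1 had the opposite sign. BEST1 was at 1.64 ± 0.135 CPM with overexpression, against 0.240 ± 0.137 CPM with vector (SD, n = 3).

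On knockout, RAB3IL1, a guanine nucleotide exchange factor gene on the far side of FADS3, was at 5.44 ± 0.281 CPM in knockout cells, against 14.7 ± 0.959 CPM in parental cells (log2 fold change -1.43 ± 0.098, adjusted p 8.78e-09 by edgeR's quasi-likelihood test). BEST1 (-1.53 ± 0.40, adjusted p 0.00632 in the same edgeR fit) and FTH1 (-0.29 ± 0.043, adjusted p 5.75e-05) were lower as well. FEN1 was slightly higher (0.17 ± 0.045, adjusted p 0.00564), and MYRF and TMEM258 were not called (-0.25 ± 0.21 and 0.39 ± 0.15). FADS3, which lies between FADS2 and RAB3IL1, was not called. BEST1 and FTH1 were thus higher on overexpression and lower on knockout, while FADS1 and FADS2 were lower in both. The spans of BEST1 and FTH1 overlap on opposite strands, so these may not be separate observations. FTH1 was far more abundant, at 263 ± 5.01 CPM in parental cells, against 0.671 ± 0.171 CPM for BEST1. Whether BEST1 counts hold FTH1 reads was not tested.

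**Figure D4:**
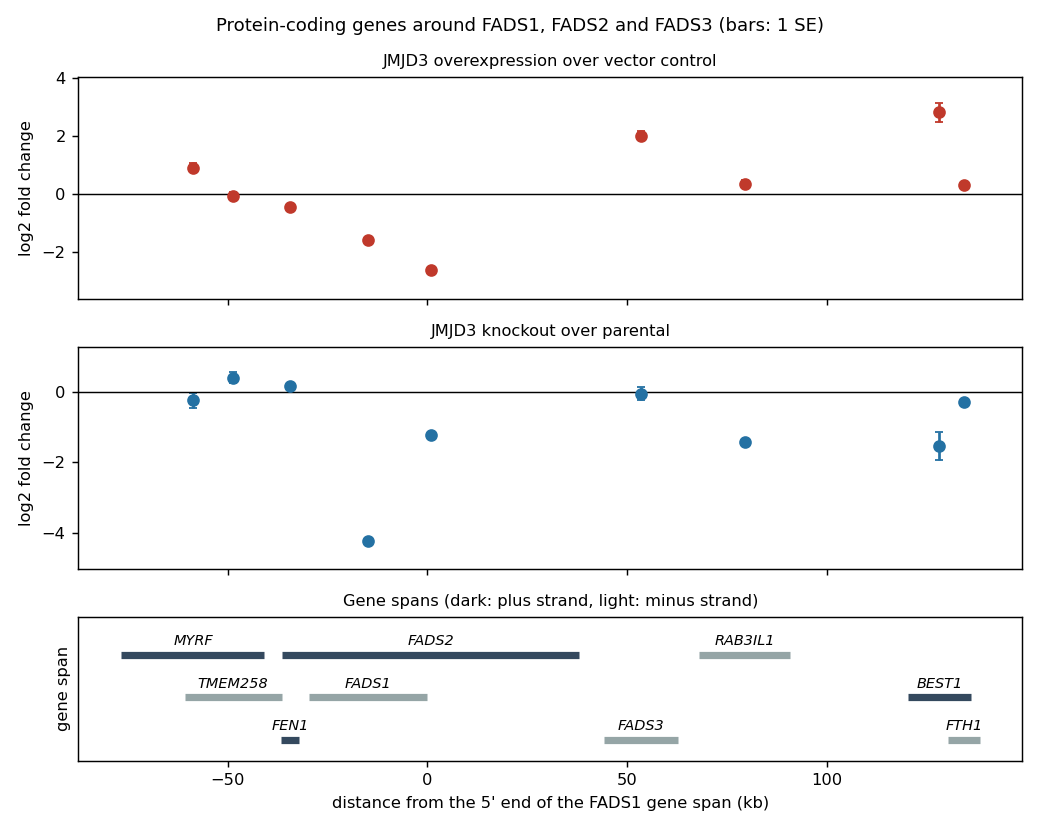
Log2 fold change with 1 SE of each protein-coding gene within 100 kb of the FADS cluster, by distance in kb from the 5′ end of FADS1, for overexpression over vector (top) and knockout over parental (middle), with gene spans below. FADS2 is lowest on overexpression (-2.64) and FADS1 on knockout (-4.21), and RAB3IL1 and BEST1 are lower on knockout (-1.43 and -1.53).

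Genes with a pattern most like that of FADS1 were ranked by the distance between pairs of log2 fold changes (overexpression, knockout), each pair resting on both comparisons of 6 libraries. The nearest included the defensin genes DEFA3 (-1.31 ± 0.32 and -4.54 ± 0.32), DEFB1 (-0.90 ± 0.46 and -3.98 ± 0.61) and DEFA1B (-0.84 ± 0.15 and -4.08 ± 0.15). The others were ACTRT3 (-0.99 ± 0.24 and -4.30 ± 0.58) and MFAP4 (-1.33 ± 0.31 and -3.48 ± 0.49). The distances were 0.43 for DEFA3, 0.61 for ACTRT3, 0.73 for DEFB1, 0.77 for DEFA1B and 0.78 for MFAP4. With SE of 0.15 to 0.61 on the fold changes, the order among these genes is uncertain. These genes were far less abundant than FADS1, at 0.566 to 11.5 CPM in parental cells, and the counts of DEFA3 and DEFA1B are uncertain because near-identical copies exist.

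Of 29 SREBP and LXR regulators tested on overexpression, 6 were higher and 7 lower (median log2 fold change -0.037), where 26.4% of all genes were called higher and 23.9% lower. INSIG1, the retention protein and itself an SREBP target, was called lower, at 32.9 ± 1.96 CPM with overexpression, against 123 ± 4.32 CPM with vector (-1.90 ± 0.076). The regulators, too, were listed with earlier results known, so no p-value is printed for them. SREBF2 was at 231 ± 7.42 CPM with overexpression, against 448 ± 33.0 CPM with vector (-0.96 ± 0.075). Both SREBF2 and SREBF1 (-0.43 ± 0.14) were called lower. SCAP was not called (-0.076 ± 0.095). The LXR gene NR1H2 was called higher (0.47 ± 0.15), and NR1H3 was not called (0.23 ± 0.16). PRKAA1, a catalytic subunit of the kinase AMPK that inhibits ACACA protein, was called higher (0.94 ± 0.072). Of the other AMPK subunit genes tested, PRKAB1 was called lower (-0.47 ± 0.079) and PRKAG1 was not called (-0.0047 ± 0.066). Both are named after their values were seen.

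The cholesterol synthesis genes, targets of SREBP2, were lower nearly throughout on overexpression. Of 22 tested, 0 were higher and 21 lower, with a median log2 fold change of -1.56, beside -0.0031 over all genes. Of all genes, 26.4% were called higher and 23.9% lower. LSS was at 34.8 ± 1.82 CPM with overexpression, against 150.4 ± 12.8 CPM with vector (-2.11 ± 0.090). FDFT1, at the branch to sterols, was at 107 ± 4.52 CPM with overexpression, against 332 ± 3.49 CPM with vector (-1.63 ± 0.065). DHCR7, of the last steps, was at 68.1 ± 2.12 CPM with overexpression, against 199 ± 4.93 CPM with vector (-1.55 ± 0.066). Of 5 LXR target genes of lipid export tested, 3 were higher and 1 lower (median 0.48). The lower one was MYLIP (-0.24 ± 0.070), and APOE was not called (0.44 ± 0.32). Both are named to complete the list, after their values were seen. ABCA1, the cholesterol exporter, was at 3.39 ± 0.234 CPM with overexpression, against 0.0985 ± 0.0316 CPM with vector (5.06 ± 0.24), and LPCAT3 (0.65 ± 0.065), which puts polyunsaturated chains into phospholipids, and NCOA7 (0.48 ± 0.073), named as a nuclear receptor coactivator, were higher as well. Neither LPCAT3 nor NCOA7 is itself an exporter.

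Of 29 regulators tested on knockout, 5 were higher and 9 lower (median -0.10), where 17.6% of all genes were called higher and 20.2% lower. INSIG1 was called higher, at 177 ± 14.4 CPM in knockout cells, against 137 ± 1.55 CPM in parental cells (0.36 ± 0.053). SREBF2 (-0.13 ± 0.041) and SCAP (-0.14 ± 0.045) were called slightly lower, and NR1H3 was called higher (0.75 ± 0.20). SREBF1 (0.020 ± 0.057) and NR1H2 (-0.10 ± 0.052) were not called. PPARD, a nuclear receptor for fatty acids (-0.82 ± 0.14), and MID1IP1, a protein that promotes ACACA polymers (-0.27 ± 0.048), were lower. Of 22 cholesterol genes, 13 were higher and 1 lower, with a median of 0.25, beside -0.0022 over all genes. NSDHL, of the later sterol steps, was higher by 0.45 ± 0.064. CYP51A1 stood apart at 75.5 ± 3.69 CPM in knockout cells, against 2.08 ± 0.379 CPM in parental cells (5.16 ± 0.093). Of 4 LXR target genes tested, LPCAT3 was higher (0.42 ± 0.059) and NCOA7 lower (-0.20 ± 0.065), with a median of -0.030 over the list.

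**Figure D5:**
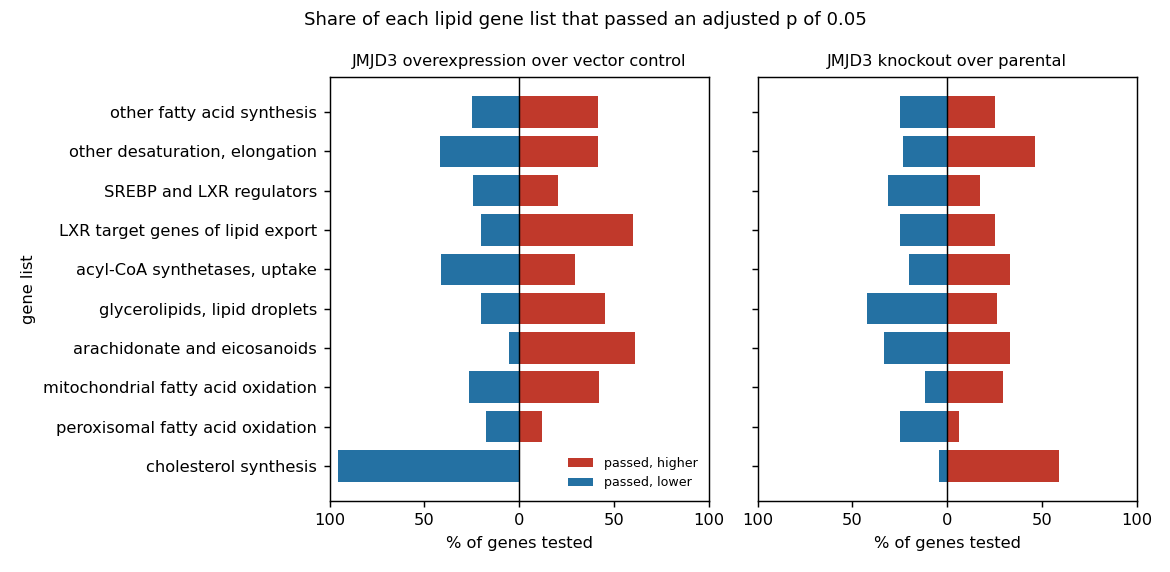
Share of the tested genes of each lipid list that were called higher (red, right of 0) or lower (blue, left of 0), in %, for overexpression over vector (left) and knockout over parental (right). Cholesterol synthesis has 21 of 22 genes lower on overexpression and 13 of 22 higher on knockout, while the lists of desaturation, elongation and synthesis have calls on both sides.

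Other genes of elongation and desaturation had calls in both directions. Of 12 tested on overexpression, 5 were higher and 5 lower (median -0.046), where 26.4% of all genes were called higher and 23.9% lower. The lower genes were the ketoreductase HSD17B12 (61.3 ± 5.57 CPM with overexpression, against 97.1 ± 4.27 CPM with vector, log2 fold change -0.66 ± 0.086) and the enoyl reductase TECR (-0.61 ± 0.15) of the elongation cycle, its dehydratases HACD2 (-0.45 ± 0.15) and HACD3 (-0.41 ± 0.11), and the cytochrome CYB5B (-0.32 ± 0.083). The higher genes were ELOVL7 (1.79 ± 0.30), SCD5 (0.67 ± 0.14), the dehydratases HACD1 (1.41 ± 0.35) and HACD4 (0.59 ± 0.14), and CYB5R1 (0.38 ± 0.13). TECR, HACD1, HACD2, HACD3, HACD4, CYB5B and, on overexpression, CYB5R1 are named to complete these counts, after their values were seen. On knockout, of 13 tested, 6 were higher and 3 lower (median 0.076), where 17.6% of all genes were called higher and 20.2% lower. There HSD17B12 was higher (143 ± 3.74 CPM with knockout, against 98.4 ± 2.97 CPM in parental cells, 0.54 ± 0.044), as was CYB5R1 (0.70 ± 0.094), and SCD5, a desaturase related to SCD, was at 0.288 ± 0.109 CPM with knockout, against 3.20 ± 0.319 CPM in parental cells (-3.43 ± 0.27).

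Of 12 other synthesis genes tested on overexpression, 5 were higher and 3 lower (median 0.10), where 26.4% of all genes were called higher and 23.9% lower. OLAH, a thioesterase that releases medium chains from FASN, was higher by 4.18 ± 0.55 from a level near 0, and MECR of mitochondrial fatty acid synthesis was lower (-0.48 ± 0.084). On knockout, 3 of 12 were higher and 3 lower (median 0.068), where 17.6% of all genes were called higher and 20.2% lower. ACACB, the mitochondrial carboxylase form, was at 8.70 ± 0.967 CPM with knockout, against 14.6 ± 0.475 CPM in parental cells (-0.75 ± 0.095). The acetyl-CoA synthetase ACSS2 was lower (-0.81 ± 0.096), and its mitochondrial relative ACSS1 was at 0.701 ± 0.131 CPM with knockout, against 0.0372 ± 0.0322 CPM in parental cells (4.20 ± 0.59).

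Genes of arachidonate release, reacylation and eicosanoid metabolism were tested because arachidonate is made by FADS1. Of 18 tested on overexpression, 11 were higher and 1 lower (median 0.42), where 26.4% of all genes were called higher and 23.9% lower. CYP4F3, which inactivates leukotriene B, was at 15.6 ± 0.829 CPM with overexpression, against 2.30 ± 0.266 CPM with vector (2.75 ± 0.12). HPGD, which inactivates prostaglandins, was higher by 2.80 ± 0.14, and ALOX5AP, the activator of leukotriene synthesis, by 1.13 ± 0.072. These counts stood beside the mature myeloid markers above, and their part was not tested. On knockout, 6 of 18 were higher and 6 lower (median -0.078), where 17.6% of all genes were called higher and 20.2% lower. The thromboxane synthase TBXAS1 (-0.95 ± 0.080) and the cyclooxygenase PTGS1 (-0.36 ± 0.045) were lower. MBOAT7, which puts arachidonate back into phosphatidylinositol, was higher (0.32 ± 0.047).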

How the data were processed

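RNA was extracted with Trizol and converted to libraries with Illumina's TruSeq RNA kit, per the labels' protocols. That kit keeps no strand information. Tools listed, without their roles, in the submitters' processing notes are RSEM, edgeR, TopHat2 2.0.4 and CASAVA 1.8, and the build is GRCh38. Per the file headers, each of the authors' deposited tables holds counts and FPKM for every library, with a log2 fold change and an adjusted p-value. The deposited count columns are expected counts multiplied by 1 unstated factor per library (0.772 to 1.197), as read from the values: once divided, values of 1000 or less came within 0.02 of a whole number in 92.91% to 94.06% of cases. The expected counts were then rounded. Lines without values (13, overexpression only) were left out.

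The 6 libraries of a comparison were fitted alone, using edgeR 4.0.16 (R 4.3.3) with TMM, filterByExpr and a robust quasi-likelihood test; p-values were adjusted by Benjamini-Hochberg over all genes tested, with a threshold of 0.05. Standard errors are |log2 fold change| over the root of F. The fit was tested on simulated data. CPM values are comparable within a table; levels across tables are side by side only. Positions, gene types and exons come from GENCODE 29, start sites and sequences from RefSeq GRCh38.p14.

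The members and 13 gene lists (260 entries) were chosen with earlier results of these data known. Named genes are the 10 members, KDM6B, up to 3 called genes by smallest p per list and comparison, SREBF1, SREBF2, SCAP, INSIG1, NR1H2 and NR1H3, protein-coding genes within 100 kb of the FADS cluster, and the 5 genes nearest FADS1 in their pair of fold changes. A few genes taken by this rule are not reported here.

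The main fits were unpaired, and all calls and SE come from them unless another setting is named. Same-numbered libraries of the overexpression comparison deviated together from their group means (correlations across genes 0.199, 0.238 and 0.553). Overexpression replicate 1 with vector replicate 2 (0.255) and replicate 2 with vector replicate 1 (0.203) were as close. In the knockout comparison same-numbered libraries did not deviate together (0.036, -0.123 and -0.069). Alternatives were upper-quartile scaling, library totals, DESeq2 1.42.0, no filter, limma 3.58.1 on log2(FPKM + 1) and log2(FPKM + 0.1), a replicate block, replicates 1 and 2 summed, each library left out and, added after seeing the data, replicates 1 and 2 only.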

Additional observations from a re-analysis of the deposited data

How the results depend on the processing

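Each called member kept its call and direction in all 15 settings of both comparisons. The limits are the number of libraries, the closeness of replicates 1 and 2 on overexpression, and low counts for FADS3. Genes called lower on overexpression numbered 3421, and 2202 by library totals alone, where 4788 were higher (68.5% of calls, against 52.5%) and the median of all genes moved by 0.14. Upper-quartile scaling gave 62.3% higher. With replicates 1 and 2 summed 1689 were lower, and 4351 were called in all. On knockout, 2860 genes were lower, and 1563 and 1568 with limma on log2(FPKM + 1) and log2(FPKM + 0.1). Genes higher on knockout numbered 2497, and 1566 with replicates 1 and 2 only.

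With the replicate block, 5274 genes were lower on overexpression (10489 called, against 7207), and 2 members were higher, since ELOVL6 joined FADS3 (0.15 ± 0.047). With replicates 1 and 2 only there were 2 members higher as well (ELOVL6 0.15 ± 0.057), and 10016 genes were called on overexpression, 5086 higher and 4930 lower. With replicates 1 and 2 summed ELOVL6 was not called (0.16 ± 0.16). On knockout the replicate numbers did not pair the libraries, and the block gave 2117 genes higher and 2480 lower (4597 called, against 5357). The block changed no other call of a member.

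Direction turned in uncalled members near 0, and the cause was not tested. On overexpression ELOVL5 was 0.081 by upper-quartile scaling, 0.14 by library totals, 0.086 and 0.087 on FPKM, 0.020 with replicates 1 and 2 only, and -0.12 to 0.13 with a library left out (0.042 and 0.056 without overexpression replicates 1 and 2). ELOVL6 was -0.069 and -0.068 on FPKM. On knockout ELOVL1 was 0.015 on both FPKM scales and ELOVL5 0.0036 on both, 0.0032 with replicates summed and -0.0076 to 0.015 with a library left out (0.0054 and 0.0031 without parental replicates 1 and 3). FADS3 ran from -0.15 to 0.028 with a library left out (0.028 without parental replicate 3) and was 0.0022 with replicates 1 and 2 only, and SCD ran from -0.0030 (without knockout replicate 3) to 0.074.

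With a library left out, genes higher on overexpression numbered 3214 to 4071 and genes lower 2634 to 3555, and on knockout 1992 to 2593 and 2343 to 2720. Members numbered 1 higher and 7 lower on overexpression, and 1 higher and 3 lower on knockout, in each such fit.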

Other observations

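Genes that take up, store and burn fatty acids had calls in both directions on overexpression, where 26.4% of all genes were called higher and 23.9% lower. Of 17 acyl-CoA synthetase, binding and uptake genes tested, 5 were higher and 7 lower (median log2 fold change -0.13). The transporter SLC27A1 was at 28.0 ± 2.59 CPM with overexpression, against 4.77 ± 0.676 CPM with vector (SD, n = 3; 2.56 ± 0.13, SE), while the acyl-CoA binding protein DBI (-1.01 ± 0.10) and ACSL5 (-0.69 ± 0.081) were lower. Of 20 glycerolipid and lipid droplet genes, 9 were higher and 4 lower (median 0.20), with AGPAT9 (1.70 ± 0.11), DGAT2 (1.27 ± 0.10) and AGPAT1 (0.63 ± 0.081) higher. Of 19 mitochondrial oxidation genes, 8 were higher and 5 lower (median -0.047). ECI2 had 101 counts over the overexpression libraries and 0 over the vector libraries, at least 32.7-fold higher against a floor of 3 counts over the group. ACAA2 had 114 counts with overexpression and 1 with vector, a ratio of 111 (95% counting interval 19.5 to 4408), and HADH was lower (-0.63 ± 0.067). Of 17 peroxisomal genes, 2 were higher, PECR (2.50 ± 0.19) and ACOX2 (5.34 ± 0.42), and 3 were lower, PEX5 by the smallest p (-0.50 ± 0.067), with a median of 0.015.

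On knockout, 5 of 15 uptake genes were higher and 3 lower (median 0.082), where 17.6% of all genes were called higher and 20.2% lower. SLC27A1 was at 0.603 ± 0.142 CPM with knockout, against 6.92 ± 1.02 CPM in parental cells (-3.50 ± 0.20), and SLC27A2 (0.39 ± 0.044) and DBI (0.36 ± 0.058) were higher. Of 19 glycerolipid genes, 5 were higher and 8 lower (median -0.018), with MGLL (0.77 ± 0.086) and GPAM (0.48 ± 0.082) higher and DGAT2 lower (-0.39 ± 0.063). Of 17 mitochondrial oxidation genes, 5 were higher, among them DECR1 (0.38 ± 0.069) and SLC25A20 (0.31 ± 0.070), and 2 were lower, with ECI1 at -0.54 ± 0.074 (list median 0.076). Of 16 peroxisomal genes, HSD17B4 was higher (0.36 ± 0.048) and 4 were lower, among them PEX5 (-0.27 ± 0.048) and ACAA1 (-0.22 ± 0.049), with a median of -0.039.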
